A study of Mus musculus with 14 samples.

Results

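Bbx is a protein-coding gene on mouse chromosome 16 that RefSeq places at 50191844 to 50432466 (mm10, 240623 bp). Its members here are all 10 kb bins of a Hi-C contact matrix that overlap this gene body, which are 25 of the 535 bins of the measured interval (45520001 to 50870000) and span 50190001 to 50440000. The 25 bins were split into a left part of 12 bins (50190001 to 50310000) and a right part of 13 bins (50310001 to 50440000), left being the side of lower coordinates. The gene was chosen by its position and by earlier results of these data, in which its distance-corrected contact with far regions differed between the matrices, so those contacts are given as a description.

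The conditions compared were deposited as 1 matrix each, named as mouse embryonic stem cells (mESC) after 2 days of auxin and as untreated mESC. Auxin is a plant hormone used to degrade a protein that carries a matching degron, and neither the labels nor the deposited names say which protein was targeted, so none is named here. The labels describe 14 samples in 10 groups of Cas/129 hybrid mESC, deletion or inversion lines made from them and neural precursor cells, captured over 45488946 to 50879849 on chromosome 16. No label names an auxin-treated or an untreated sample, and the sources used here do not give which libraries, or how many, entered each matrix.

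Bbx is the bobby sox homolog and carries an HMG box, a DNA-binding domain shared with the Sox and Tcf/Lef families of transcription factors. In Hi-C, pieces of DNA near each other in the nucleus are joined and sequenced as a read pair, so the pairs between 2 bins measure how often they touch. Contact falls steeply with distance along the chromosome and falls further across boundaries, the edges of insulated domains.

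All contact levels below are observed over expected contact, in which 1 is the mean contact at that distance in the same matrix. Changes are log2 of the auxin level over the untreated level. Each level rests on read pairs recovered from the balanced values, 433895 in the auxin matrix and 439849 in the untreated matrix. Pairs that joined a Bbx bin to a bin at least 20 kb away numbered 26815 in the auxin matrix and 27498 in the untreated matrix. Single Bbx bins held 560 to 2252 pairs in the auxin matrix and 560 to 2475 in the untreated matrix. With 1 pooled matrix per condition there is no replicate error and no test: the 95% intervals in brackets cover counting error only, and a contact is called higher or lower where the log2 change exceeded 0.3 in size with an interval that leaves out 0.

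Bbx lost contact with a stretch to its right that holds Dubr, a long noncoding RNA gene lying 294.3 kb from the gene's right end, and its embedded microRNA Mir6363. The last full 100 kb block on that side (50720001 to 50820000) was in contact with the whole gene at 1.22 in the auxin matrix (1586 pairs) and at 1.68 in the untreated matrix (2247 pairs). Contact therefore fell by 0.46 on the log2 scale (interval -0.58 to -0.35). Both parts of the gene showed the fall. The left part stood at 1.26 (1.16 to 1.38) in the auxin matrix and at 1.81 (1.69 to 1.94) in the untreated matrix, a log2 change of -0.52. The right part stood at 1.19 (1.09 to 1.30) in the auxin matrix and at 1.59 (1.48 to 1.72) in the untreated matrix, a log2 change of -0.42. The right part's change minus the left part's was not separated from 0 by its counting interval (0.09, -0.13 to 0.32).

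The Dubr promoter is shown because it lies inside this stretch, in the bin that starts at 50730001. The sequence is from RefSeq, GRCm38.p6, chr16:50732724-50733023, minus strand, read 5′ to 3′, with the 50 bases from the annotated start in capitals.
Dubr promoter: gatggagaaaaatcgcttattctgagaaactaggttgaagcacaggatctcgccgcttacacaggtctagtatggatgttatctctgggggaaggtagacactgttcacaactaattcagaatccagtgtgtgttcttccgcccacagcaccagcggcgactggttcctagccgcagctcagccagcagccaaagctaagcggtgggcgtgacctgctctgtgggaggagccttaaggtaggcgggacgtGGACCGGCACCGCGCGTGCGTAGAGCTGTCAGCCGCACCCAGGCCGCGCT
Of its 300 bases, 57.3% are G or C. At a resolution of 10 kb the contact cannot be assigned to the promoter rather than to other sequence in the bin.

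**Figure D1:**
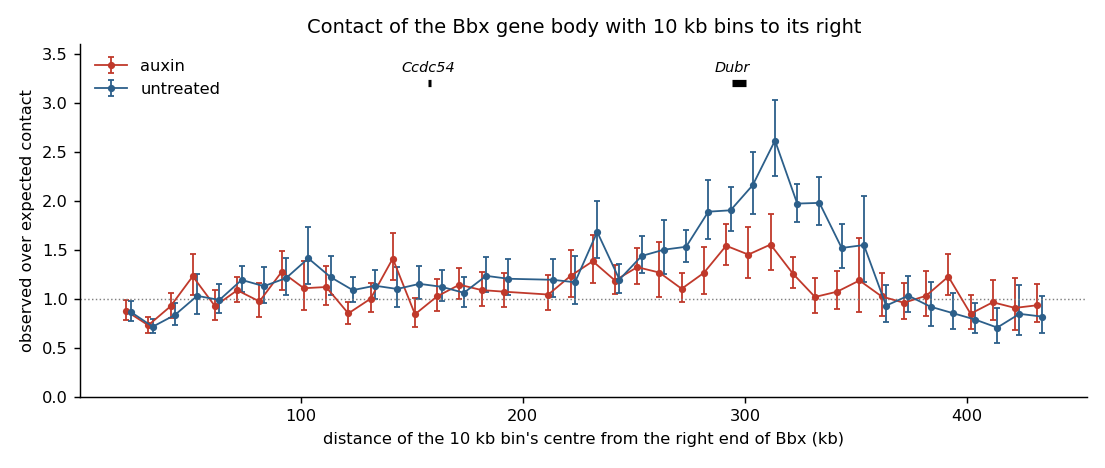
Observed over expected contact (y axis) of the 25 Bbx bins with single 10 kb bins to the right, by distance of the bin's centre from the right end of Bbx (x axis, kb); points are levels, bars 95% counting intervals, black bars Ccdc54 and Dubr, and the bin with under 10 untreated pairs is left out. Untreated contact climbed to 2.61 at 312.5 kb and was 0.93 at 362.5 kb, while auxin contact reached 1.55 at most.

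Bin by bin, untreated contact of the whole gene formed a peak whose top lay in the bin next to the Dubr promoter. In the bin at 50740001 contact was 1.55 in the auxin matrix (146 pairs) and 2.61 in the untreated matrix (222 pairs), a log2 change of -0.75 (-1.09 to -0.42). In the bin at 50730001, which holds the Dubr promoter, contact was 1.45 in the auxin matrix and 2.16 in the untreated matrix (log2 -0.57). In the bin at 50720001, which holds most of Dubr and Mir6363, it was 1.54 in the auxin matrix and 1.90 in the untreated matrix (log2 -0.30, called lower). The bin at 50760001 showed the biggest drop of the 42 bins right of the gene. Contact there was 1.02 in the auxin matrix, against 1.98 in the untreated matrix (log2 -0.96, -1.27 to -0.65). The bin at 50740001 was named for its top untreated level and the bin at 50760001 for its drop. Their intervals do not cover that choice.

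Across those 42 bins, 10 were called lower and 1 higher, where windows of the same size over the whole interval were called lower with 5.17% and higher with 5.90% of single bins. That background took in all distances and was not matched for distance or read pairs, so more calls can come from closer, deeper pairings. Of the 10 lower bins, 8 lay side by side from 50700001 to 50780000. The other two were 50550001 in the noncoding gene G730013B05Rik and 50580001, which overlaps Ccdc54, a gene for a coiled-coil protein. The right edge of the peak was abrupt: the bin at 50780001 stood at 1.19 in the auxin matrix and 1.55 in the untreated matrix, and the bin at 50790001 at 1.02 in the auxin matrix and 0.93 in the untreated matrix. Beyond this edge the bin at 50820001 was called higher, with 1.23 in the auxin matrix and 0.85 in the untreated matrix. Taking the run of adjacent bins at 1.5 or more in the untreated matrix, a rule set after these values were seen, gave 10 bins (50690001 to 50790000), of which 2 were at 1.5 or more in the auxin matrix. Since the untreated values chose that run, its change is given without weight: 1.27 in the auxin matrix and 1.86 in the untreated matrix.

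**Figure D2:**
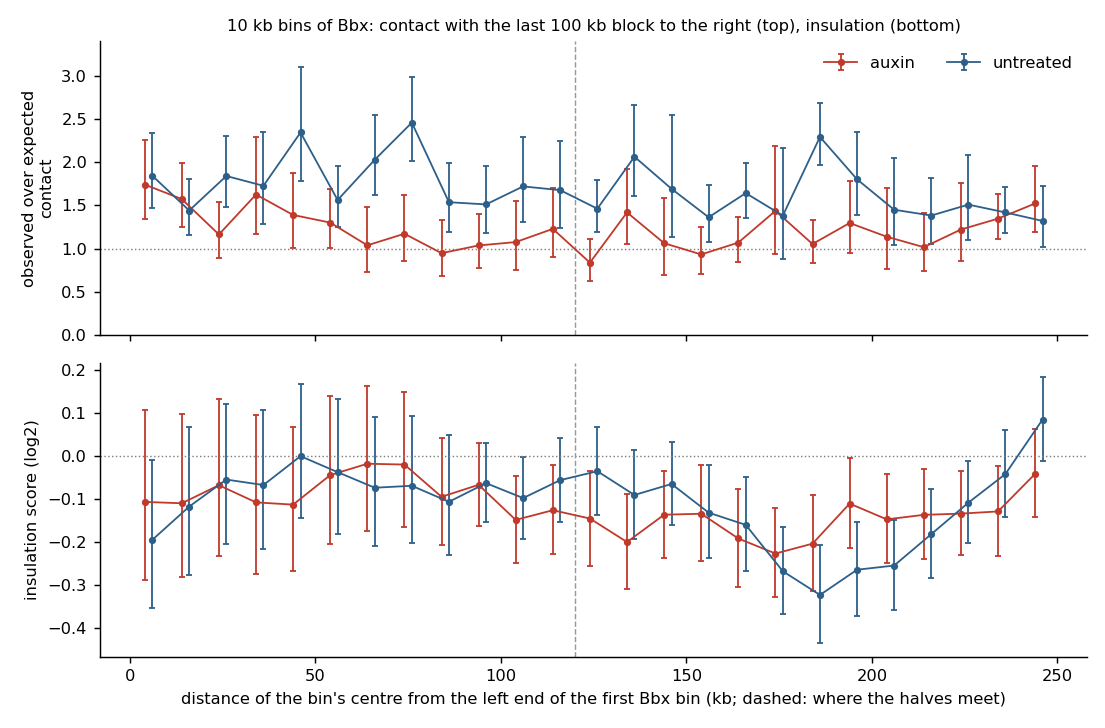
Values of the 25 Bbx bins along the gene (x axis, kb from the left end of the first bin) with 95% counting intervals: contact with the last 100 kb block to the right (top, observed over expected) and insulation score (bottom, log2). Untreated contact is above 1 in all 25 bins and reaches 2.46, and contact was called lower in 10 bins.

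Inside the gene the loss was uneven. All 25 Bbx bins stood above 1 with the last block in the untreated matrix (1.32 to 2.46, median 1.64), and 22 did so in the auxin matrix (0.837 to 1.74, median 1.17). Contact was called lower in 10 of the 25 bins, 6 in the left part and 4 in the right part, and higher in 0. For comparison, 3.63% of all pairings of a single bin with a 100 kb block were called lower and 3.80% higher. Those pairings lay at all distances across the interval and were not matched to the Bbx bins for distance or read pairs. The bin at 50370001 gave 95 pairs in the auxin matrix and 208 in the untreated matrix, and its contact was 1.05 in the auxin matrix, against 2.29 in the untreated matrix (log2 -1.12, -1.53 to -0.71). The bin at 50260001 followed, with 1.17 in the auxin matrix and 2.46 in the untreated matrix (log2 -1.07, -1.60 to -0.52). Its neighbour at 50250001 had 1.04 in the auxin matrix and 2.03 in the untreated matrix (log2 -0.97). These bins were named for the size of their falls, and the intervals do not cover that choice.

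The ends of the gene kept close values. At the left end the bins at 50190001 and 50200001 had 1.74 and 1.57 in the auxin matrix, against 1.85 and 1.44 in the untreated matrix. At the right end the bins at 50420001 and 50430001 had 1.35 and 1.52 in the auxin matrix, against 1.42 and 1.32 in the untreated matrix. None of these 4 bins passed the call. Inner bins with close values were also present, such as 50220001 (log2 -0.09) and 50360001 (log2 0.06). A difference between the ends and the inside of the gene was not tested.

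Squares of 3 by 3 bins located the strongest contacts more closely. They were ranked by their untreated level, among squares with at least 50 untreated pairs, so the untreated levels are high by choice. The top square joined 50220001 to 50250000 in Bbx with 50740001 to 50770000, at 1.60 in the auxin matrix (73 pairs) and 2.86 in the untreated matrix (126 pairs). The next joined 50250001 to 50280000 with 50710001 to 50740000, which spans Dubr, at 1.31 in the auxin matrix (56 pairs) and 2.69 in the untreated matrix (111 pairs). The third joined 50370001 to 50400000 in the right part with 50730001 to 50760000, at 1.35 in the auxin matrix (78 pairs) and 2.68 in the untreated matrix (156 pairs). In these squares the auxin levels remained above 1, and only the second had an interval that reached below it (0.982 to 1.72).

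The same 100 kb block was also in contact above 1 with the sequence left of Bbx, which holds Cd47, Ift57 and part of Myh15. Windows of 12 bins from 49110001 up to the gene stood at 1.36 to 1.92 in the auxin matrix and at 1.28 to 2.58 in the untreated matrix. Of these 9 windows, 2 were called lower, those from 49350001 to 49470000 (log2 -0.43) and from 49470001 to 49590000 (log2 -0.41). The window next to the gene on the left, from 50070001 to 50190000, had 1.505 in the auxin matrix and 1.64 in the untreated matrix (log2 -0.12, -0.45 to 0.18). The left part of Bbx fell further than that window, by a log2 difference of -0.39 (-0.73 to -0.03), whereas for the right part the interval of the difference included 0 (-0.30, -0.64 to 0.06). Loss of contact with the block was thus not particular to Bbx.

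Contact within the gene showed no called change. Pairs of Bbx bins at least 20 kb apart stood at 0.920 (0.886 to 0.957, 3554 pairs) in the auxin matrix and at 0.952 (0.918 to 0.988, 4026 pairs) in the untreated matrix, a log2 change of -0.05 (-0.12 to 0.03). Within the left part the change was -0.07 (-0.19 to 0.06), within the right part -0.06 (-0.21 to 0.10) and between the parts -0.03 (-0.15 to 0.09). Bbx was thus slightly under the interval's mean contact at its own distances in both matrices. Among the 13 protein-coding genes of at least 5 bins it ranked 6th from the lowest in the auxin matrix and 5th in the untreated matrix. Its neighbour Cd47, which encodes a surface ligand that restrains phagocytes, was at 0.953 in the auxin matrix and 0.962 in the untreated matrix, and their intervals overlapped those of Bbx.

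A weak boundary lay inside the right part of Bbx. The insulation score is log2 of the mean contact between the 100 kb before and the 100 kb after a bin, relative to the mean of the interval, and a boundary is a local minimum at least 0.2 deep. The lowest Bbx bin was 50360001 in the auxin matrix, at -0.23 (-0.33 to -0.12) with a depth of 0.25, and 50370001 in the untreated matrix, at -0.32 (-0.44 to -0.21) with a depth of 0.32. At 50370001 itself the auxin score was -0.20 and the untreated score -0.32, and the difference of 0.12 had an interval of -0.04 to 0.28. No Bbx bin passed the call for insulation, beside 2.91% of bins called higher and 1.17% called lower over the interval. The mean score over the gene was -0.12 in the auxin matrix and -0.11 in the untreated matrix, a difference of -0.01 (-0.09 to 0.08). The bin at 50370001 was also the Bbx bin with the largest log2 fall in contact with the Dubr block.

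A second boundary lay just left of the gene, at 50160001 in the auxin matrix (depth 0.21) and at 50150001 in the untreated matrix (depth 0.31). The nearest boundary to the right was the bin at 50530001 in both matrices, outside the 50 kb margin, with scores of -0.30 in the auxin matrix and -0.28 in the untreated matrix. Each matrix thus had 2 boundaries in or within 50 kb of Bbx. At a depth of 0.3 the auxin matrix had 0 and the untreated matrix 2. After the matrices were balanced again each had 1, at 50360001.

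**Figure D3:**
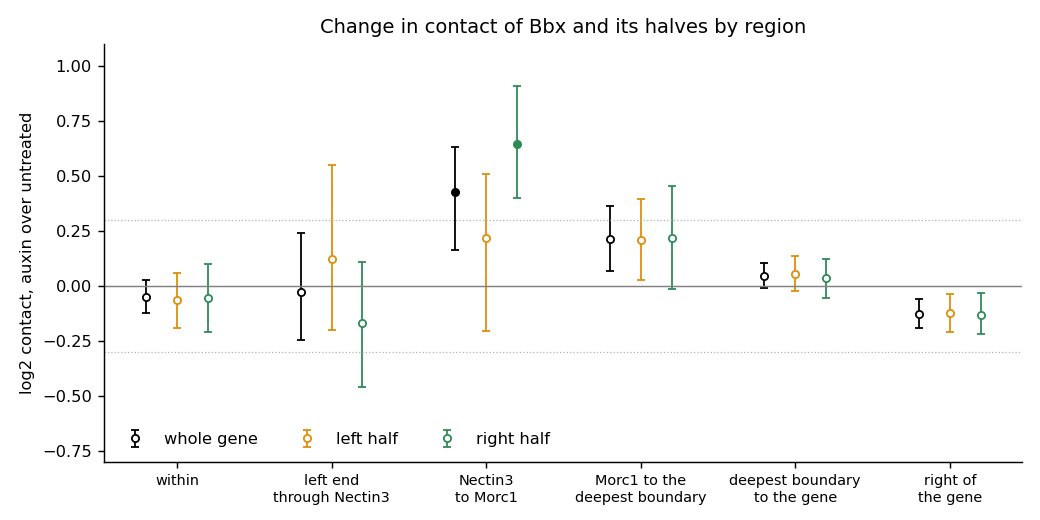
Change in observed over expected contact (y axis, log2 auxin over untreated) within Bbx and its 2 parts and with 5 regions ordered along the chromosome (x axis), with 95% counting intervals; filled points pass the call and dotted lines mark 0.3. The calls are Nectin3 to Morc1 for the whole gene (0.43) and for the right part (0.65).

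At larger distances the gene faced the deepest boundary of the interval, the bin with the lowest untreated insulation score, at 49020001. From there to Bbx, contact was 1.01 in the auxin matrix (10893 pairs) and 0.98 in the untreated matrix (10728 pairs), a log2 change of 0.05 (-0.01 to 0.10). Right of the gene as a whole it was 1.08 in the auxin matrix and 1.18 in the untreated matrix, with a log2 change of -0.13 (-0.19 to -0.06) under the size needed for a call. Beyond the deepest boundary Bbx was under the mean contact for its distance in both matrices, at 0.889 (0.849 to 0.937, 4262 pairs) in the auxin matrix and 0.737 (0.696 to 0.801, 3283 pairs) in the untreated matrix. That log2 change of 0.27 (0.13 to 0.38) missed the size for a call in the whole gene, and the right part passed it at 0.34 (0.19 to 0.49). Counted in read pairs without the balancing weights, the right part no longer passed (0.26, 0.16 to 0.35), while the whole gene passed at 0.30 after balancing again and at 0.45 with a single expected decay for both matrices, an alternative chosen after seeing the data.

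Contact rose most with the gene-poor stretch from Nectin3 to Morc1 (46500001 to 48430000). The whole gene stood at 0.884 there in the auxin matrix (1863 pairs) and at 0.657 in the untreated matrix (1238 pairs), a log2 change of 0.43 (0.16 to 0.63). The right part stood at 0.936 in the auxin matrix and 0.598 in the untreated matrix, a log2 change of 0.65 (0.40 to 0.91). For the left part the change was 0.22 (-0.21 to 0.51) and not called, but with sparse bins left out it passed at 0.33 (0.15 to 0.51). The right part's change exceeded the left part's by 0.43 (0.05 to 0.93). In read pairs without the balancing weights the difference was 0.21 and its interval included 0 (-0.003 to 0.42). With the stretch from Morc1 to the deepest boundary the whole gene was at 0.835 in the auxin matrix and 0.720 in the untreated matrix (log2 0.21, 0.07 to 0.36). With the left end through Nectin3 it was at 1.04 in the auxin matrix and 1.06 in the untreated matrix (log2 -0.03, -0.24 to 0.24).

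These gains were not particular to Bbx. Windows of the gene's size right of the deepest boundary were called higher in 12 of their 21 pairings with these 3 regions (57.1%). Some of these windows overlap Bbx itself. Among the 184 single bins right of that boundary, which include the Bbx bins, 37.5% were called higher with all bins left of it. Of the 25 Bbx bins 4 were called higher, 1 in the left part and 3 in the right part. Myh15, a myosin heavy chain gene beside the boundary, had a log2 change of 0.45 with the stretch from Nectin3 to Morc1, and the difference of Bbx from it was -0.02 (-0.32 to 0.23). Cd47 had 0.25 and differed from Bbx by an interval that included 0 (0.18, -0.18 to 0.51). Ift57, which encodes a part of the intraflagellar transport complex, gained more than Bbx with the stretch from Morc1 to the boundary, at 0.63, the difference of Bbx being -0.42 (-0.76 to -0.05). With the left end through Nectin3, Bbx exceeded Myh15 by 0.34 (0.04 to 0.70), and contact of Myh15 there was 1.04 in the auxin matrix and 1.34 in the untreated matrix.

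In read pairs, 30.0% of the whole gene's pairs at least 20 kb apart went to the right in the auxin matrix (29.5 to 30.6, exact binomial interval), against 34.2% (33.7 to 34.8) in the untreated matrix. The share that stayed within the gene was 13.3% in the auxin matrix and 14.6% in the untreated matrix. The share from the deepest boundary to the gene was 40.6% in the auxin matrix and 39.0% in the untreated matrix. Pairs to the 3 regions beyond the boundary made up 6.11%, 6.95% and 2.84% in the auxin matrix, read from the boundary outward, and 4.90%, 4.50% and 2.53% in the untreated matrix. Intervals of the auxin and the untreated share overlapped only for the left end through Nectin3.

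**Figure D4:**
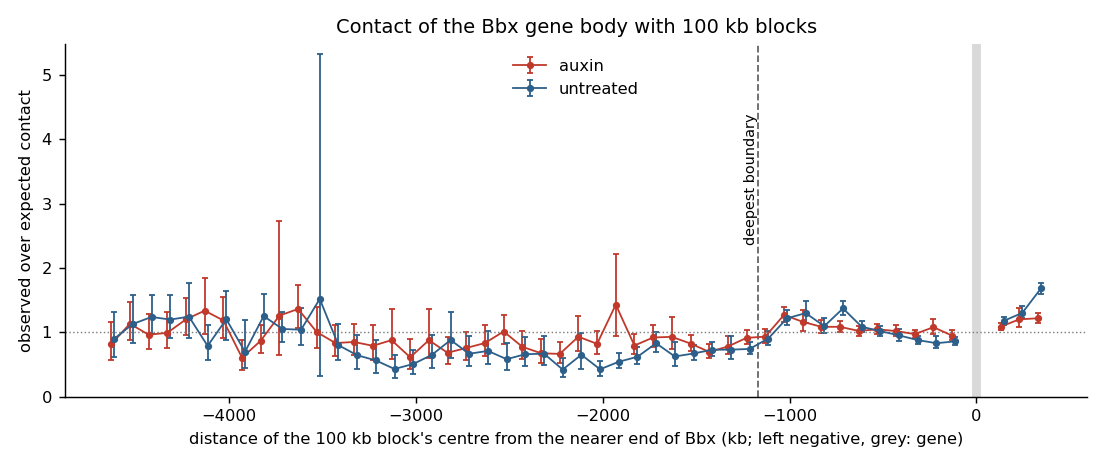
Observed over expected contact (y axis) of the whole Bbx gene with 100 kb blocks, by distance of the block's centre from the nearer gene end (x axis, kb, left negative), with 95% counting intervals; the dashed line marks the deepest boundary. Left of the boundary, auxin points lie above untreated ones in 25 of 35 blocks, and the last block on the right is at 1.22 in the auxin matrix and 1.68 in the untreated matrix.

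Of the 49 blocks of 100 kb at least 20 kb from the gene, the left part was called higher with 4 and lower with 1, beside 12.4% higher and 8.53% lower over all windows of its size. The right part was called higher with 4 and lower with 3, beside 12.2% higher and 9.10% lower. Both shares of higher calls were under the background, at 4 of 49. For the whole gene 9 blocks were higher and 3 lower, beside 15.0% and 10.9%. Of its 9 higher blocks, 8 lay left of the deepest boundary, among 35 there, where 1 was lower; windows of the gene's size were called higher with 23.9% and lower with 1.56% of blocks across that boundary.

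The block with Dppa4 and Dppa2 (48220001 to 48320000), which encode DNA-binding partners active in pluripotent cells, was among the 3 top rises of both parts. The left part was at 0.968 with it in the auxin matrix (103 pairs) and at 0.582 in the untreated matrix (69 pairs), a log2 change of 0.73. The right part was at 1.89 in the auxin matrix (101 pairs) and at 0.507 in the untreated matrix (50 pairs), a log2 change of 1.90 with an interval of 0.84 to 2.90. The auxin level of the right part had an interval of 0.988 to 3.46, and in read pairs without the balancing weights its log2 change was 0.85 (0.35 to 1.36). Dppa4 alone had a log2 change of 0.14 with the left part and 1.66 with the right part. Dppa2 alone had 0.21 and -0.24. Only Dppa4 with the right part was called, so the gene names locate the block and do not assign its rises to both genes. The other top rises of the left part were 47620001 to 47720000 (0.85) and 46520001 to 46620000 (0.77, interval from 0.00). Those of the right part were 47020001 to 47120000 (1.41, on 21 pairs in the auxin matrix and 18 in the untreated matrix, but 0.06 without the balancing weights) and 46020001 to 46120000 with Cd96 (1.29). Cd96 encodes a receptor of T and natural killer cells. The gene body itself had a log2 change of 1.08 with the right part (-0.01 to 2.17) and was not called.

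Besides the Dubr block, the right part fell with 47320001 to 47420000 (log2 -1.15, on 22 pairs in the auxin matrix and 33 in the untreated matrix). It also fell with 49420001 to 49520000, where contact was 0.984 in the auxin matrix (318 pairs) and 1.32 in the untreated matrix (427 pairs), a log2 change of -0.42 (-0.68 to -0.16). The whole gene was lower with this block too, at 1.09 in the auxin matrix (770 pairs) and 1.37 in the untreated matrix (1011 pairs). The left part had no other lower block. Without the balancing weights, the calls of the left part for 48220001 and 46520001 and of the right part for 47020001 and 47320001 were lost.

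**Figure D5:**
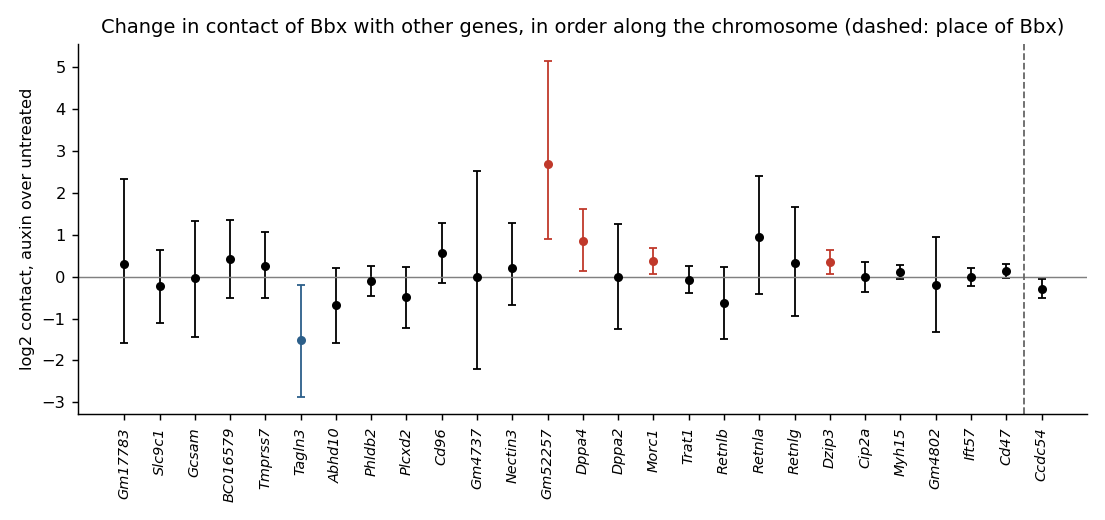
Change in observed over expected contact (y axis, log2 auxin over untreated) of the whole Bbx gene with 27 protein-coding genes in chromosome order (x axis), with 95% counting intervals; red marks called higher, blue called lower. Gm52257, Dppa4, Morc1 and Dzip3 are higher, Tagln3 is lower and the dashed line marks the place of Bbx.

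With the 27 other protein-coding genes at least 20 kb away, 4 contacts of the whole gene were called higher and 1 lower, beside 8.67% higher and 5.42% lower over all gene pairs; the median log2 change was -0.005. Among the 3 genes of the germline and early embryo list, 2 rose. Dppa4 was at 0.896 in the auxin matrix (51 pairs) and 0.495 in the untreated matrix (30 pairs), a log2 change of 0.86 (0.13 to 1.61), and 1.66 with the right part alone. Morc1, a silencer of transposons in male germ cells, was at 0.913 in the auxin matrix (539 pairs) and 0.708 in the untreated matrix (394 pairs), a log2 change of 0.37 (0.05 to 0.68). Dppa2 had a log2 change of -0.01 on 18 pairs in the auxin matrix and 14 in the untreated matrix.

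Of the 4 genes listed as near or right of the deepest boundary, 1 was called. Dzip3, a ubiquitin ligase gene, rose to 0.817 in the auxin matrix (299 pairs), against 0.642 in the untreated matrix (247 pairs), a log2 change of 0.35 (0.05 to 0.64). Cip2a, whose product inhibits protein phosphatase 2A, Myh15 and Ift57 had changes of -0.01, 0.11 and -0.01 and were not called. Bbx contacted Cip2a at 1.20 in the auxin matrix and 1.21 in the untreated matrix, the highest levels with any listed gene in that group. Gm52257 rose by a log2 change of 2.69, on 21 pairs in the auxin matrix and 3 in the untreated matrix, and the log2 change had an interval of 0.90 to 5.14.

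In the adhesion and cytoskeleton list, Tagln3, a transgelin family gene, was lower at 0.975 in the auxin matrix (12 pairs) and 2.79 in the untreated matrix (25 pairs), a log2 change of -1.52 (-2.88 to -0.20). Nectin3, which encodes a cell adhesion protein, and Phldb2, which anchors microtubules at the cell cortex, had changes of 0.21 and -0.11 and were not called. None of the 4 lymphocyte and immune surface genes (Trat1, Cd47, Cd96, Gcsam), the 3 resistin-like genes (Retnla, Retnlb, Retnlg) or the 5 other listed genes was called for the whole gene. Cd96 had the largest positive change of the immune genes, 0.56 (-0.15 to 1.27). Ccdc54, the only protein-coding gene right of Bbx in the interval, had 0.933 in the auxin matrix (361 pairs) and 1.14 in the untreated matrix (478 pairs); its log2 change of -0.29 (-0.51 to -0.07) stopped short of a call.

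The whole-gene calls for Dppa4, Morc1, Dzip3 and Tagln3 were each lost under at least 1 other way of processing. Calls of the parts with the same 27 genes stood beside 8.67% higher and 5.42% lower over all pairs of whole gene bodies. Those pairs were not matched to the parts for size. The left part was called higher with 3 genes (Tmprss7, Gm52257 and Dzip3) and lower with Ccdc54 (log2 -0.34). The right part was called higher with Dppa4 and lower with Tagln3 and Retnlb, a secreted resistin-like protein gene with 12 pairs in the auxin matrix and 21 in the untreated matrix.

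The contact profile of Bbx over 100 kb blocks was compared with those of protein-coding genes of at least 3 bins, which leaves out Ccdc54. By Spearman rho over 47 blocks at least 20 kb from both genes, the most alike in the auxin matrix were Cd47 (0.62), Ift57 (0.55) and Myh15 (0.25). The distant Nectin3 followed Myh15 closely there (0.22). In the untreated matrix they were Cd47 (0.67), Myh15 (0.67) and Ift57 (0.59). These profiles share the blocks, the bins' weights and the side of the deepest boundary, so the values are a description. Profiles of the 2 parts of Bbx over 49 blocks had a rho of 0.42 with each other in the auxin matrix and 0.61 in the untreated matrix. For the left part the auxin and the untreated profile had a rho of 0.73, and for the right part 0.34.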

How the data were processed

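The deposited values are signal: balanced contacts without a unit, between 10 kb bins. Row sums over the interval were not equal, at 113 to 2130 in the auxin matrix and 95.5 to 1905 in the untreated matrix. Balancing again within the interval was therefore one of the alternatives, and it changed insulation scores and boundaries as given below. The authors pooled replicates and applied iterative correction, going by the names they gave the matrices. Trim Galore and mm10 are named in the submitters' processing notes; aligner, filters and balancing software are not stated there. A bin's stated position was taken as its start. Whole read pairs were recovered as value over the product of 2 bin factors, and 100.0% of nonzero values came within 0.02 of a whole number. Pairs per bin ranged from 14 to 4150 in the auxin matrix and from 14 to 4348 in the untreated matrix, and 18 bins had under 100.

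Expected contact was the mean at each distance in the same matrix, so a rise in some pairs lowers others. Intervals (95%) are gamma intervals of weighted Poisson sums, combined for ratios by the square-and-add method, and exact binomial for shares. Pairs carry no molecular identifiers, so intervals cover counting error only. Read pair recovery and log2 changes of planted contacts were tested on simulated data, the latter with expected contact and bin factors held at those simulated. Contacts were planted only between the gene or a part of it and a block or region. Contacts of single bins or with single genes, estimation of expected contact, balancing, insulation and boundary calls were not tested in this way. Outcomes of the simulations are not given here, so no support is drawn from them. Members, gene lists and areas were chosen with earlier results of these data known. Named genes are the 22 listed, the 3 with the most similar profile per matrix and any gene called. Named blocks are the 3 largest called rises and falls per part; blocks ran in steps of 100 kb from the interval's start. Gene positions came from RefSeq GRCm38.p6, whose table gave no strand for Bbx. Alternatives were other estimators, expected values, filters, distances, windows and depths. Calculations used Python 3.11.15 with numpy 2.4.6, scipy 1.17.1 and pandas 2.3.3.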

Additional observations from a re-analysis of the deposited data

How the results depend on the processing

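No paired analysis was possible because each matrix pools its replicates, and for the same reason no replicate could be left out. In no result and setting tried did a call turn to the opposite direction. The fall with the last 100 kb block was called under all 7 alternatives, at -0.52 to -0.40 for the whole gene, -0.56 to -0.45 for the left part and -0.50 to -0.35 for the right part.

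Whole-gene contact left of the deepest boundary became a call at 0.30 when the matrices were balanced again and at 0.45 with a single decay for both matrices, under which Morc1 to the boundary also passed (0.33). That alternative and the expected contact without the gene were chosen after seeing the data.

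Counts of calls moved, and the cause was not tested. Shares over all windows and gene pairs were counted at the main settings only. The counts below thus have no background of their own and are not read as a gain or loss of Bbx. For genes, the whole gene's lower calls were 2 with recovered read pairs and 0 with bins whole inside the gene. The left part's were 0 with recovered pairs, balancing again or inner bins. The right part's higher calls were 3, 2, 2, 2 and 5 (recovered pairs, balanced again, inner bins, expected without the gene, single decay), and its lower calls 1 with inner bins and 0 with a single decay. For blocks, a single decay gave 14 higher and 1 lower for the whole gene, 9 higher for the left part and 10 higher for the right part. Recovered pairs gave 2 higher and 2 lower for the left part and 10 higher for the right part. Balancing again gave 2 lower for the left part and 7 higher for the right part, and the expected contact without the gene 5 lower for the right part.

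Calls for Dppa4, Dzip3, Morc1 and Tagln3 with the whole gene were each lost under at least 1 alternative, and that for Dppa4 with recovered pairs had a log2 change of 0.65 (-0.02 to 1.34).

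The lowest insulation score in Bbx was -0.016 in the auxin matrix and -0.081 in the untreated matrix after balancing again, and -0.38 in the auxin matrix with a window of 50 kb. Boundaries in or within 50 kb numbered 1 in each matrix after balancing again, 1 in each with a window of 200 kb, and 0 in the auxin matrix at a depth of 0.3. A window of 50 kb gave 3 in the auxin matrix, 2 of them inside the gene, and 2 in the untreated matrix, both inside it, and a depth of 0.1 gave 3 in the untreated matrix. After balancing again the 1 that remained was at 50360001 in both. With a window of 200 kb the auxin one was at 50290001 and the untreated one at 50140001. The 100 kb blocks beyond the deepest boundary held as few as 47 pairs with the gene in the auxin matrix and 35 in the untreated matrix, which limits single distant values.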
